A study of Mus musculus with 6 samples.

Results

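CC chemokine ligands are small secreted proteins that attract leukocytes and other cells bearing matching receptors. The set described here was 10 of the 52550 genes in the deposited table, chosen by symbol as Ccl2, Ccl3, Ccl4, Ccl5, Ccl6, Ccl7, Ccl8, Ccl9, Ccl12 and Ccl22, and each symbol stood on a single row. The RNA-seq data came from bone marrow-derived macrophages (BMDMs) of C57BL/6 background, either lacking macrophage scavenger receptor 1 (MSR1 KO, 3 libraries) or with it intact (MSR1 WT, 3 libraries). Bone marrow cells of both genotypes were grown for 7 days with 25 ng/ml M-CSF, the growth factor that drives macrophage differentiation, and were then kept for 48 h in a transwell co-culture system with bone marrow stromal cells (BMSCs). Msr1 was knocked out in the whole donor mouse in the MSR1 KO group, so the knockout was not limited to the culture period, and no library of BMDMs kept without BMSCs was analysed here. The methods call the libraries biological replicates, but the labels do not say which animal each came from, so p-values measure the spread between these libraries.

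CC chemokines are named for a pair of adjacent cysteines near the start of the mature protein. They bind G protein-coupled CC receptors on the responding cell, and several ligands share a receptor: Ccl3 and Ccl5 both act on Ccr1, whereas Ccl2, Ccl7, Ccl8 and Ccl12 belong to the monocyte chemoattractant proteins, several of which act on Ccr2. Macrophages are a major source of these ligands, and transcription of many of them is raised by NF-kappaB and by interferon-activated STAT and IRF factors. Atypical receptors bind chemokines without the usual G protein signal and can remove them from the surroundings.

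Total counts ranged from 36143518 to 47417448 per library. Msr1, the targeted gene, had counts of 2118, 1825 and 2000 in MSR1 KO replicates 1 to 3 and of 7543, 9163 and 9219 in MSR1 WT replicates 1 to 3. Its log2 fold change was -2.02 (SE 0.14, adjusted p = 0.0012 by edgeR's quasi-likelihood test), so the libraries followed their labels while reads on the gene remained. Macrophage markers were abundant in both groups: Lyz2 had 13398 and 14912 CPM (counts scaled to the size of the library by the TMM method), Csf1r 4539 and 4413 CPM and Adgre1 2361 and 2255 CPM in MSR1 KO and MSR1 WT, respectively. Of the 8 macrophage markers, Fcgr1 (an Fc receptor) was higher at a log2 fold change of 1.14 and Mrc1 (the mannose receptor CD206) was lower at -0.39 in MSR1 KO (edgeR adjusted p = 0.0182 and 0.0369). The summed CPM of 8 macrophage markers was 23630 to 24960 in MSR1 KO and 24380 to 27280 in MSR1 WT. In bulk RNA, fewer cells of one type and less RNA per cell cannot be told apart.

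Of the 10 ligands, 9 lie on chromosome 11, in 2 groups, and Ccl22 lies on chromosome 8 (GRCm38; all 10 spans in the table equal those of the GENCODE annotation). The first group holds Ccl2 (ENSMUSG00000035385.5, chr11:82035571-82037453), Ccl7 (ENSMUSG00000035373.2, chr11:82045712-82047525), Ccl12 (ENSMUSG00000035352.3, chr11:82101845-82103400) and Ccl8 (ENSMUSG00000009185.2, chr11:82115185-82116799), all on the + strand and within 81.2 kb. The second group spans 138.9 kb and holds Ccl5 (ENSMUSG00000035042.2, chr11:83525778-83530518), Ccl9 (ENSMUSG00000019122.8, chr11:83572919-83578636), Ccl6 (ENSMUSG00000018927.3, chr11:83587882-83593087) and Ccl3 (ENSMUSG00000000982.5, chr11:83647844-83649355) on the - strand and Ccl4 (ENSMUSG00000018930.3, chr11:83662584-83664683) on the + strand. Ccl22 (ENSMUSG00000031779.3) covers chr8:94745590-94751699 on the + strand. No exon of a member overlaps an exon of another gene on either strand. Stretches of 50 bases shared with transcripts of other genes were found only in Ccl9, for 59 of its 2996 stretches (1.97%), and in none of the other 9 members.

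The upstream sequences of 5 members are printed because these genes stood at both ends of the fitted fold changes given below: Ccl12 and Ccl8, of the first group on chromosome 11, had the highest of the 10, and Ccl3, Ccl9 and Ccl6, of the second group, the lowest. The place of Ccl8 rested on 1 library. Without MSR1 KO replicate 2 its log2 fold change was 0.98, below those of Ccl5 (1.01) and Ccl22 (1.11). RefSeq promoter windows on GRCm38.p6 matched 6 of the 10 members (Ccl3, Ccl6, Ccl8, Ccl9, Ccl12 and Ccl22), and Ccl2, Ccl4, Ccl5 and Ccl7 had none. Each line gives the 250 bases before the RefSeq start, 5′ to 3′ on the gene's strand, and positions below count from that start. For Ccl3 and Ccl22 it differs from the start of the span given above. The Ccl3 bases begin at 83649379, beyond the end of its span at 83649355. For Ccl22, not printed, these bases run to 94745683, inside its span, which begins at 94745590. Capitals mark matches to 3 motifs: an NF-kappaB-type motif GGNNTTTCC and an interferon-stimulated response element core GAAANNGAA, each sought on both strands over the 300 bases of the window, and a TATA box TATAAAA, sought on the gene's strand in the last 50 bases before the start.
Ccl12, chr11:82101595-82101844 (+ strand): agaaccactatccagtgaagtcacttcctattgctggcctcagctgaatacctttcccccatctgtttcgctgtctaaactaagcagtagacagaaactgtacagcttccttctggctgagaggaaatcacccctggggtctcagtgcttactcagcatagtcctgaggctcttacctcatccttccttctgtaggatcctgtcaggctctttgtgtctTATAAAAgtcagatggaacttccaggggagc
Ccl8, chr11:82114935-82115184 (+ strand): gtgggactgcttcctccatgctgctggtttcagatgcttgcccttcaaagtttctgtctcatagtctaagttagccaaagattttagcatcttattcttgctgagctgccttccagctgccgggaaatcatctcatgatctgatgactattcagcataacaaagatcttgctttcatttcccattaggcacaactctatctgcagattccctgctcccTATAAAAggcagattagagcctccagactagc
Ccl3, chr11:83649379-83649628 (- strand): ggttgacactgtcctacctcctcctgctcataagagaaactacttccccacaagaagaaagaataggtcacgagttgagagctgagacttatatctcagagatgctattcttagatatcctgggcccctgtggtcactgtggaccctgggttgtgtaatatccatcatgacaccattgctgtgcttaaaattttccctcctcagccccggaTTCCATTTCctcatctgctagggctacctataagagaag
Ccl9, chr11:83578637-83578886 (- strand): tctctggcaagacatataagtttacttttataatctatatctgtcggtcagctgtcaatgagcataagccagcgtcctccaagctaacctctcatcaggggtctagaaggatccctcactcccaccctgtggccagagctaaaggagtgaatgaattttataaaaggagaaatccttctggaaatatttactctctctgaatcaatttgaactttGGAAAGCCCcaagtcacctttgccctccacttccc
Ccl6, chr11:83593088-83593337 (- strand): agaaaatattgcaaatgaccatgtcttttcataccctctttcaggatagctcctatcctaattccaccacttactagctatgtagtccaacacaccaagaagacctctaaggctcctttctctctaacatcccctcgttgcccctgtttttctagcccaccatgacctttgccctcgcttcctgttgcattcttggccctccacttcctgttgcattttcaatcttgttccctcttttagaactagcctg
The TATA box began 31 bases before the start in Ccl12 and 32 bases before it in Ccl8, and was not in the last 50 bases of the other 4 windows; 1.11% of the 32851 windows in the RefSeq table hold it there. The letters tataaaa also stand farther from the start of Ccl9, from base 92 before it, outside the stretch searched and left in lower case. This motif was added after the sequences had been seen. An NF-kappaB-type match on the opposite strand stood 35 to 27 bases before the start of Ccl9, against 5.82% of all windows with at least 1 match, and a response element core on the opposite strand stood 39 to 31 bases before that of Ccl3, against 8.56% of all windows. Neither of these 2 motifs was found in the windows of Ccl6, Ccl8, Ccl12 or Ccl22. A match describes the letters only, and the absence of one covers only these letters in this window. The longest run of identical bases between any 2 of the 6 windows was 13 bases (gccctccacttcc), shared by the neighbours Ccl6 and Ccl9.

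The 10 ligands together took 0.1635%, 0.127% and 0.1645% of all counts with MSR1 KO, and 0.156%, 0.150% and 0.145% with MSR1 WT (replicates 1 to 3 of each). The group means were 0.152% ± 0.0215 and 0.150% ± 0.00546 (SD, n = 3 each), and the ranges overlapped. Ccl6 alone made up 61.7% to 69.9% of the members' counts, and Ccl6 with Ccl9 made up 87.4% to 92.3%. The sum of the family thus mainly followed these 2 genes, and it did not show how the less abundant members behaved.

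Levels of the members were compared with each other as CPM per kilobase of exon. In MSR1 KO libraries, the mean level fell in the order Ccl6 (545 CPM per kb), Ccl9 (129), Ccl3 (96.9), Ccl4 (60.3), Ccl5 (15.9), Ccl7 (14.4), Ccl2 (12.1), Ccl12 (8.27), Ccl8 (5.27) and Ccl22 (0.308). In MSR1 WT libraries, the order was Ccl6 (555 CPM per kb), Ccl9 (121), Ccl3 (88.5), Ccl4 (37.0), Ccl7 (11.3), Ccl2 (9.68), Ccl5 (8.002), Ccl12 (1.87), Ccl8 (1.03) and Ccl22 (0.128). Both orders began with the same 4 genes and ended with the same 3. Among neighbours in these orders, the libraries of Ccl5 and Ccl7, of Ccl7 and Ccl2 and of Ccl12 and Ccl8 overlapped in MSR1 KO, and those of Ccl7 and Ccl2, of Ccl2 and Ccl5 and of Ccl12 and Ccl8 overlapped in MSR1 WT. All other neighbours were separated in every library of the group. These levels depend on the exon length used, such as 3045 bases over 2 transcripts for Ccl9. In MSR1 KO the lowest Ccl9 library (108 CPM per kb) lay close to the highest of Ccl3 (104).

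**Figure D1:**
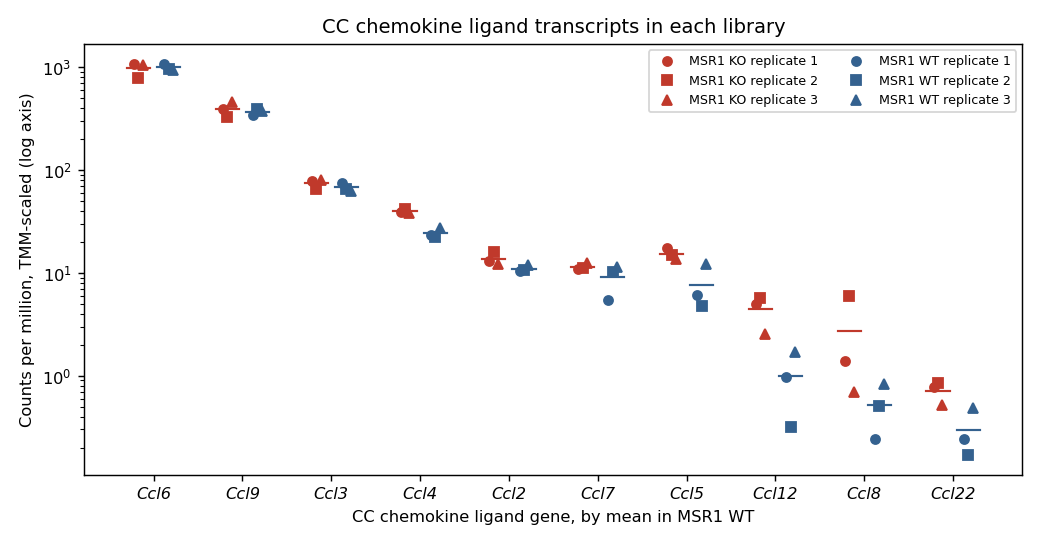
Each point is 1 library and each short line a group mean; the y axis gives CPM, scaled by TMM, on a log axis, and the 10 genes stand on the x axis in the order of their mean in MSR1 WT. The MSR1 KO points (red) of Ccl2, Ccl4, Ccl5, Ccl12 and Ccl22 lie all above the MSR1 WT points (blue), while those of Ccl3, Ccl6, Ccl7, Ccl8 and Ccl9 overlap them.

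MSR1 KO was compared with MSR1 WT gene by gene, to ask how the loss of the receptor went with ligand transcripts in BMDMs in the co-culture system. Of the 10 members, all of which entered the test, 1 (Ccl4) was higher at an adjusted p under 0.05 and 0 were lower, by edgeR's quasi-likelihood test with Benjamini-Hochberg adjustment over 16402 genes. Over all tested genes, 2.25% were higher and 2.66% were lower by that rule. At an unadjusted p under 0.05, without regard to fold, Ccl2, Ccl4, Ccl5, Ccl8, Ccl12 and Ccl22 passed, all higher in MSR1 KO, against 8.65% of all tested genes. By the study's definition of DEGs (fold change above 1.5 and unadjusted p under 0.05), 5 members were higher (Ccl4, Ccl5, Ccl8, Ccl12 and Ccl22) and 0 were lower, against 3.59% and 5.05% of all tested genes. Ccl22 and Ccl8 reached the filter's minimum in every MSR1 KO library but in only 1 and 2 of the 3 MSR1 WT libraries, and 3 members were higher by this definition without them. In 5 members every MSR1 KO library lay above every MSR1 WT library, which was the case for 12.1% of all tested genes, and in 0 members did every MSR1 KO library lie below. The median log2 fold change was 0.53 over the members and -0.0023 over all tested genes. Without Ccl8 and Ccl22 the members' median lay between the values of Ccl2 (0.32) and Ccl7 (0.35). Without these genes, Ccl2, Ccl4, Ccl5 and Ccl12 remained, both at an unadjusted p under 0.05 and with no overlap. The number past the adjusted threshold was 4 with DESeq2 (Ccl4, Ccl5, Ccl8 and Ccl12) and 0 to 3 when a library was left out: it was 0 without MSR1 KO replicate 1, MSR1 WT replicate 1 or MSR1 WT replicate 2, and 3 (Ccl4, Ccl5 and Ccl12) without MSR1 WT replicate 3. Ccl4, Ccl5 and Ccl12 met the DEG definition in every alternative fit, whereas Ccl8 missed it without MSR1 KO replicate 2, MSR1 WT replicate 1 or MSR1 WT replicate 2, and Ccl22 missed it or was not tested in all fits but those with DESeq2, DESeq2 size factors, no filter or MSR1 WT replicate 3 left out.

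**Figure D2:**
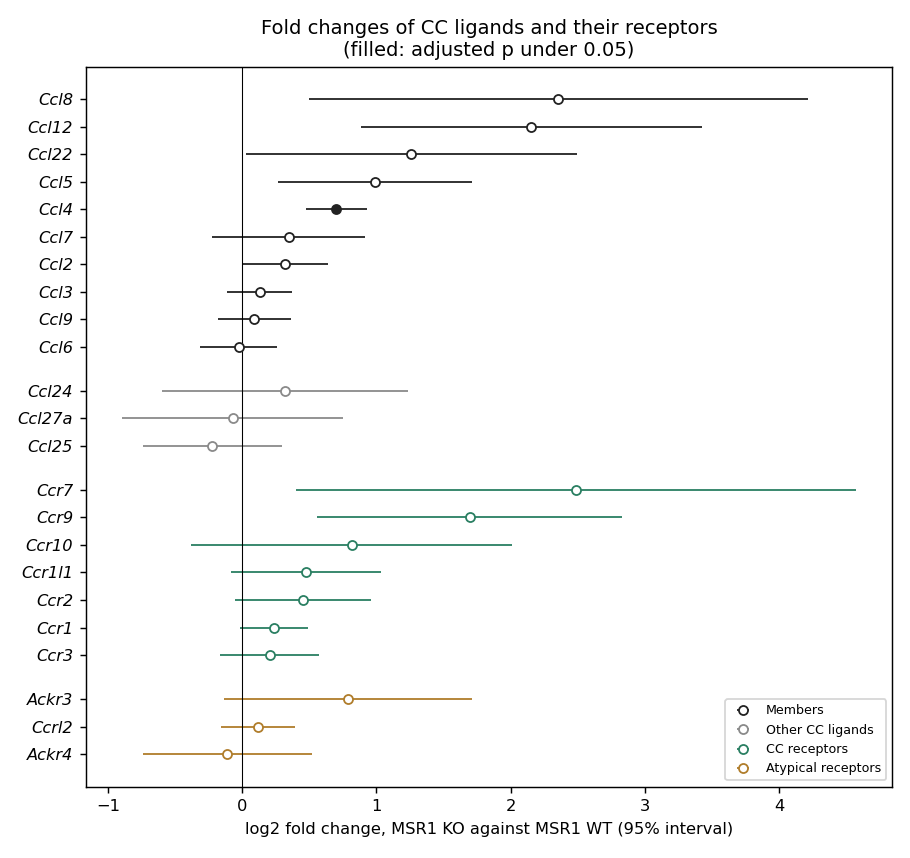
Points are edgeR log2 fold changes, MSR1 KO against MSR1 WT, on the x axis with 95% intervals; each row is a tested gene, coloured by list. The filled point, Ccl4, has an adjusted p under 0.05; 9 of the 10 member estimates lie above 0, with Ccl6 at -0.03.

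Of Ccl3, Ccl4 and Ccl5, Ccl4 (macrophage inflammatory protein-1 beta) differed beyond the replicate spread. It reached 1418, 1661 and 1772 counts with MSR1 KO and 969, 1065 and 1131 counts with MSR1 WT (replicates 1 to 3 of each). All 3 MSR1 KO libraries were higher than all 3 MSR1 WT libraries. The level rose from 24.4 ± 2.60 CPM in MSR1 WT to 39.8 ± 1.82 CPM in MSR1 KO (SD, n = 3 each), which was a fitted log2 difference of 0.70 (SE 0.10, 95% interval 0.47 to 0.93, 1.63-fold, adjusted p = 0.0152 by edgeR's quasi-likelihood test). With a library left out the log2 fold change stayed between 0.64 and 0.79, while the adjusted p ranged from 0.00729 to 0.0709 and exceeded 0.05 without MSR1 KO replicate 1, MSR1 WT replicate 1 or MSR1 WT replicate 2. Over all genes, those 3 fits called 42, 18 and 62 higher genes, against 369 with all libraries.

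Ccl3 (macrophage inflammatory protein-1 alpha), the neighbour of Ccl4 among the members on chromosome 11, gave 2786, 2599 and 3711 counts for MSR1 KO, compared with 3106, 3079 and 2612 for MSR1 WT. The groups overlapped, with MSR1 KO replicate 2 (65.3 CPM) below MSR1 WT replicate 1 (75.3 CPM). Its log2 fold change was 0.13 (95% interval -0.11 to 0.37, adjusted p = 0.58 by the same edgeR test), an interval that lies below the whole interval of Ccl4.

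Ccl5 (RANTES) had counts of 623, 589 and 635 in MSR1 KO replicates 1 to 3 and of 251, 228 and 502 in MSR1 WT replicates 1 to 3. The MSR1 KO libraries were all higher, and MSR1 WT replicate 3 stood far closer to them than the other two MSR1 WT libraries. The means were 15.3 ± 1.89 CPM in MSR1 KO and 7.68 ± 3.92 CPM in MSR1 WT (SD, n = 3 each). The log2 fold change was 0.99 (SE 0.31, 95% interval 0.27 to 1.71), and its edgeR adjusted p over all genes was 0.128, above the threshold. Without MSR1 WT replicate 3 the log2 fold change was 1.49 (edgeR adjusted p = 0.00668), and without MSR1 WT replicate 2 it was 0.74 (edgeR adjusted p = 0.292). DESeq2 gave an adjusted p of 0.0112.

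Among the monocyte chemoattractants, Ccl12 and Ccl8 had the highest fitted fold changes and Ccl2 and Ccl7 small ones. Ccl12, the mouse monocyte chemoattractant protein-5, reached 181, 229 and 118 counts with MSR1 KO and 40, 15 and 71 counts with MSR1 WT (replicates 1 to 3 of each). Every MSR1 KO library was above every MSR1 WT library, and each group varied widely, at 4.44 ± 1.69 CPM in MSR1 KO and 1.00 ± 0.70 CPM in MSR1 WT (SD, n = 3 each). The log2 fold change was 2.15 (SE 0.55, 95% interval 0.88 to 3.42, 4.45-fold) with an unadjusted p of 0.00435 and an adjusted p of 0.0688 by edgeR's quasi-likelihood test. It lay between 1.72 and 2.80 with a library left out, and the adjusted p passed under the threshold in 1 of these 6 fits, without MSR1 WT replicate 3 (edgeR adjusted p = 0.037). DESeq2 gave an adjusted p of 0.000705.

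Ccl8 (monocyte chemoattractant protein-2) gave 50, 239 and 32 counts for MSR1 KO, compared with 10, 24 and 34 for MSR1 WT. MSR1 KO replicate 2 was far above the rest, and MSR1 KO replicate 3 (0.69 CPM) was below MSR1 WT replicate 3 (0.82 CPM), so the groups overlapped. The means were 2.69 ± 2.89 CPM and 0.52 ± 0.29 CPM (SD, n = 3 each). The log2 fold change of 2.35 (SE 0.81, 95% interval 0.50 to 4.21, edgeR adjusted p = 0.156) fell to 0.98 without MSR1 KO replicate 2, so that library set most of its size. Two-sided exact permutation tests of the CPM values gave p = 0.2 for Ccl8 and p = 0.1 for Ccl12 (and for Ccl2, Ccl4, Ccl5 and Ccl22), where 0.1 is the smallest p that 3 against 3 libraries allow.

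Ccl2 (monocyte chemoattractant protein-1) had counts of 472, 633 and 571 in MSR1 KO replicates 1 to 3 and of 428, 511 and 491 in MSR1 WT replicates 1 to 3. All MSR1 KO libraries were higher once scaled, at 13.8 ± 1.89 CPM against 11.01 ± 0.78 CPM (SD, n = 3 each), although the lowest MSR1 KO value (12.3 CPM) and the highest MSR1 WT value (11.9 CPM) nearly met. The log2 fold change was 0.32 (95% interval 0.01 to 0.64, adjusted p = 0.25 by edgeR's quasi-likelihood test). Ccl7 (monocyte chemoattractant protein-3) reached 396, 440 and 581 counts with MSR1 KO and 227, 486 and 471 counts with MSR1 WT (replicates 1 to 3 of each). MSR1 WT replicate 1 was the low one, at 5.51 CPM, and MSR1 WT replicate 3 at 11.4 CPM was above 2 MSR1 KO libraries. The log2 fold change of Ccl7 was 0.35 (95% interval -0.22 to 0.92, edgeR adjusted p = 0.52), and it was 0.09 without MSR1 WT replicate 1.

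Ccl6 and Ccl9, related mouse ligands made by myeloid cells, were the most abundant members and had fitted differences near 0. Ccl6 gave 39032, 31385 and 49276 counts for MSR1 KO, compared with 44691, 45961 and 38707 for MSR1 WT. The groups overlapped, at 978 ± 165 CPM and 997 ± 77.4 CPM (SD, n = 3 each), with MSR1 KO replicate 2 the lowest library. Its log2 fold change was -0.03 (95% interval -0.31 to 0.26, edgeR adjusted p = 0.94). Ccl9 had counts of 14117, 13090 and 21297 in MSR1 KO replicates 1 to 3 and of 14180, 18560 and 15378 in MSR1 WT replicates 1 to 3. The ranges overlapped again, with MSR1 KO replicates 2 and 3 at the 2 ends, and the log2 fold change was 0.09 (95% interval -0.18 to 0.36, edgeR adjusted p = 0.75). Both genes had at least 13090 counts in every library, so counting error adds little to these intervals.

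Ccl22 (macrophage-derived chemokine), a ligand of Ccr4, was the least abundant member. It reached 28, 34 and 24 counts with MSR1 KO and 10, 8 and 20 counts with MSR1 WT (replicates 1 to 3 of each). The MSR1 KO libraries were all higher, by little between MSR1 KO replicate 3 (0.52 CPM) and MSR1 WT replicate 3 (0.48 CPM). It passed the filter on low counts through the MSR1 KO libraries, since 1 of 3 MSR1 WT libraries reached the filter's 0.244 CPM. The log2 fold change was 1.26 (95% interval 0.03 to 2.49, edgeR adjusted p = 0.25) and lay between 0.97 and 1.79 with a library left out. Its receptor Ccr4 was listed at 0 in all 6 libraries.

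**Figure D3:**
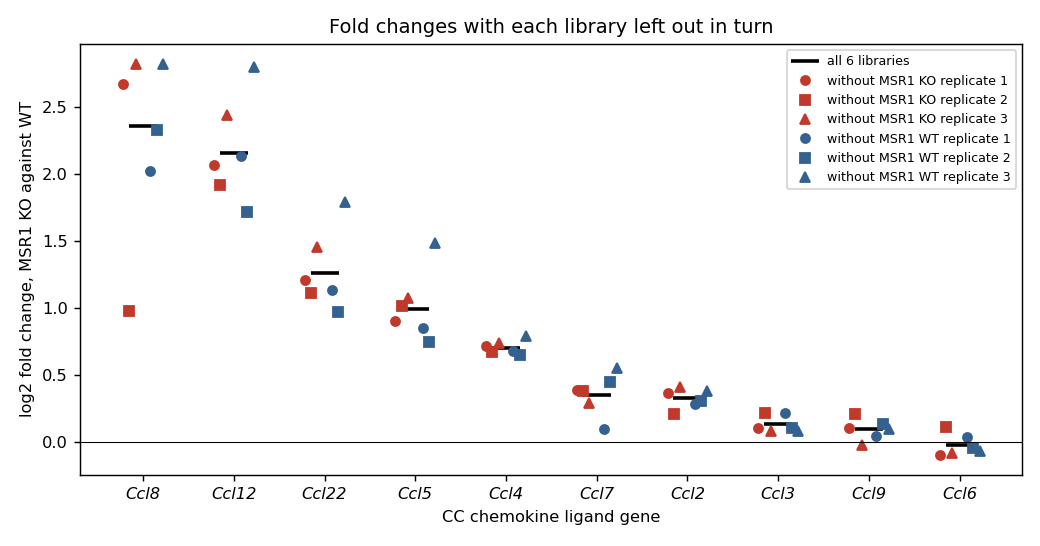
For each gene on the x axis, the black bar gives the log2 fold change (MSR1 KO against MSR1 WT, y axis) from all 6 libraries and each coloured point the same value with 1 library left out. Ccl8 drops to 0.98 without MSR1 KO replicate 2, Ccl5 and Ccl12 are highest without MSR1 WT replicate 3 (1.49 and 2.80), and Ccl6 and Ccl9 stay near 0.

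The libraries did not rank alike for all members. Among all 6 libraries, the highest CPM of a member was always in an MSR1 KO library: replicate 2 for 5 members, replicate 3 for 3 and replicate 1 for 2. The lowest was in an MSR1 WT library for 8 members and in MSR1 KO replicate 2 for the other 2 members, Ccl6 and Ccl9. Within the MSR1 WT group, replicate 3 was the highest for 7 of the 10 members.

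Along chromosome 11, the fitted differences were alike in some adjacent members and unlike in others. In the first group, Ccl2 and Ccl7 had log2 fold changes of 0.32 and 0.35, whereas Ccl12 and Ccl8, 66274 and 79614 bases farther on, had 2.15 and 2.35. No other gene within 100 kb of this group was tested. In the second group, Ccl5 and Ccl4 stood at the ends with 0.99 and 0.70, and Ccl9, Ccl6 and Ccl3 between them had 0.09, -0.03 and 0.13. Differences between neighbouring genes were not tested. Of 7 other tested genes within 100 kb of the second group, and of 5 within 100 kb of Ccl22, 0 had an adjusted p under 0.05.

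**Figure D4:**
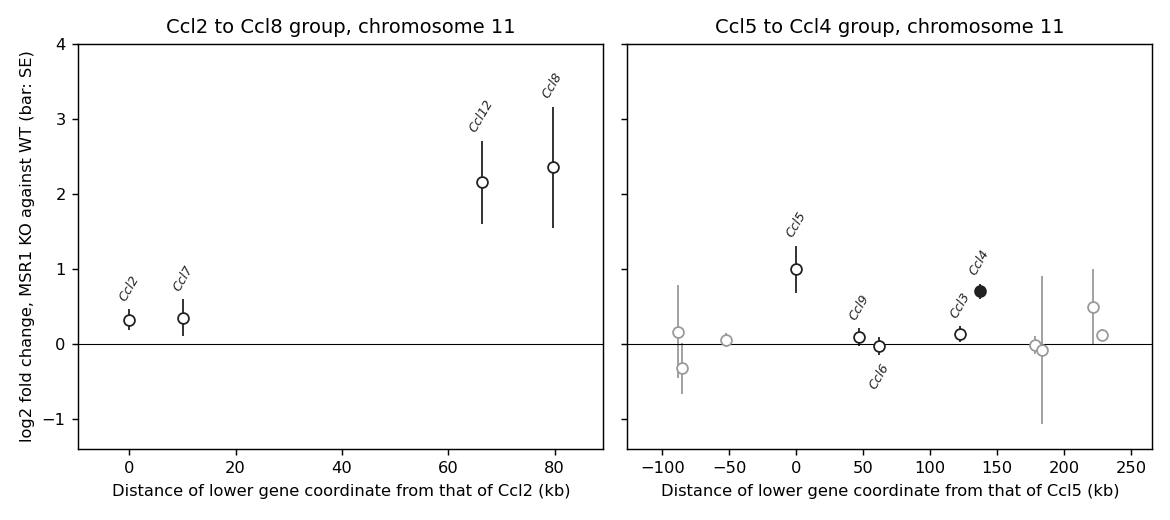
The x axis gives the distance in kb from Ccl2 (left) or Ccl5 (right) along chromosome 11 and the y axis the log2 fold change, MSR1 KO against MSR1 WT, with its SE; black points are members, grey points other tested genes within 100 kb, and the filled point has an adjusted p under 0.05. Ccl12 and Ccl8 lie above Ccl2 and Ccl7 on the left, and Ccl5 and Ccl4 above the 3 members between them on the right.

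The remaining CC ligands of the mouse were mostly near or at 0. Of 13 found in the table, 3 were tested and 0 were called: Ccl24 (eotaxin-2) had a log2 fold change of 0.32, Ccl25 -0.22 and Ccl27a -0.07, with edgeR adjusted p-values of 0.74, 0.67 and 0.94, and their groups overlapped. Up to 2.74% of the exon bases of Ccl25 and 0.34% of those of Ccl27a lie opposite another gene's exons. Ccl19, Ccl21a, Ccl21b, Ccl26 and Ccl27b were listed at 0 in all 6 libraries, where a count of 0 allows up to 3 counts (0.0632 to 0.0835 CPM). Ccl1, Ccl11, Ccl17, Ccl20 and Ccl28 had at most 13 counts in any library. Ccl17, which shares the receptor Ccr4 with Ccl22, had 0 counts in each MSR1 KO library and 4, 0 and 5 in the MSR1 WT libraries, a difference not detectable at this depth.

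Of 10 CC receptor genes, 7 were tested, and 0 had an adjusted p under 0.05 by edgeR's quasi-likelihood test, whereas 2 (Ccr7 and Ccr9) had an unadjusted p under 0.05 and 1 (Ccr9) was called by DESeq2. Ccr2, the receptor of Ccl2, had counts of 10140, 9391 and 9041 in MSR1 KO replicates 1 to 3 and of 5277, 7421 and 9750 in MSR1 WT replicates 1 to 3. The groups overlapped through MSR1 WT replicate 3, and the log2 fold change was 0.45 (edgeR adjusted p = 0.32). Ccr1, a receptor of Ccl3 and Ccl5, had a log2 fold change of 0.24 and Ccr3, the eotaxin receptor, one of 0.20, with edgeR adjusted p-values of 0.29 and 0.56. Ccr9, the receptor of Ccl25, reached 169, 143 and 142 counts with MSR1 KO and 20, 40 and 90 counts with MSR1 WT (replicates 1 to 3 of each), without overlap, at a log2 fold change of 1.69 (edgeR adjusted p = 0.10). Exons of other genes cover 19.0% of the exon bases of Ccr9 on the opposite strand and 2.62% on its own, and the strand setting of the counting is not given in the sources used here, so its counts are uncertain. Ccr7, which guides dendritic cells and lymphocytes, gave 12, 28 and 60 counts for MSR1 KO, compared with 0, 9 and 9 for MSR1 WT and entered the test only through the MSR1 KO group (edgeR adjusted p = 0.18); it also stands in the list of dendritic cell markers given last. Ccr1l1 (log2 fold change 0.48) and Ccr10 (0.82) had edgeR adjusted p-values of 0.34 and 0.46, and Ccr4, Ccr6 and Ccr8 were listed at 0 in every library. Of the 5 atypical receptor genes, 3 were tested and 0 were called: Ackr3 had a log2 fold change of 0.79, Ackr4 of -0.11 and Ccrl2 of 0.12, with edgeR adjusted p-values of 0.34, 0.88 and 0.67. Exons of another gene lie opposite 8.9% of those of Ackr4.

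Among 21 genes of transcription factors and NF-kappaB inhibitors that act on chemokine genes, all tested, 4 were higher at an adjusted p under 0.05 and 0 were lower. Over all tested genes, 2.25% were higher by that rule. All 4 called genes belong to the interferon-linked STAT and IRF families. In the same families, Irf1, Irf3, Stat3 and Stat6 were not called. Their log2 fold changes were 1.02, 0.09, 0.21 and 0.13 (edgeR adjusted p = 0.073, 0.78, 0.31 and 0.28). Stat2, which carries interferon signals to the nucleus, had 9932, 11844 and 10474 counts in MSR1 KO replicates 1 to 3 against 3997, 4108 and 6155 in MSR1 WT replicates 1 to 3, a log2 fold change of 1.27 (edgeR adjusted p = 0.0193). Irf7 had 12325, 14772 and 17353 counts against 5468, 4344 and 8337, a log2 fold change of 1.35 (edgeR adjusted p = 0.0253). Irf5 and Irf9 had log2 fold changes of 0.60 and 0.48 (edgeR adjusted p = 0.0237 and 0.0353). In all 4 called genes every MSR1 KO library was above every MSR1 WT library. The number called in this list fell to 0 without MSR1 KO replicate 1 or MSR1 WT replicate 1, to 1 (Irf7) without MSR1 WT replicate 2 and to 1 (Stat2) without MSR1 KO replicate 2. DESeq2 called 6 genes of the list, adding Irf1 and Cebpb, the latter outside the STAT and IRF families. The log2 fold changes of the 5 NF-kappaB subunit genes, which lie outside the rule for named genes, were 0.02 for Nfkb1, -0.07 for Nfkb2, 0.03 for Rela, -0.06 for Relb and 0.26 for Rel. Rel had an edgeR adjusted p of 0.22, and the inhibitor gene Nfkbib, with a log2 fold change of 0.30 and no overlap between the groups, one of 0.18. The other inhibitor genes overlapped, with log2 fold changes of -0.05 for Nfkbia, 0.05 for Nfkbie, -0.03 for Nfkbiz and -0.23 for Tnfaip3. The activity of these factors and their part in the ligand levels were not tested.

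Of 10 cytokine genes whose products can raise or lower CC ligand transcription, 6 were tested and 0 had an adjusted p under 0.05, whereas 1 (Il10, an anti-inflammatory cytokine) met the unadjusted DEG definition and was called by DESeq2. Il10 reached 337, 356 and 350 counts with MSR1 KO and 237, 134 and 245 counts with MSR1 WT (replicates 1 to 3 of each), a log2 fold change of 0.84 (edgeR adjusted p = 0.14). Ifnb1 and Ifng, the genes of interferon-beta and interferon-gamma, had at most 8 counts in any library.

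Markers of other cells moved with genotype in some lists. The summed CPM of 9 stromal markers was 1125 to 1471 in MSR1 KO and 1466 to 1879 in MSR1 WT libraries, led by Col1a2, Col1a1 and Col3a1, with 3 genes lower at an adjusted p under 0.05 (Pdgfra, Pdgfrb and Cxcl12). In the same list Thy1 was 2.47-fold higher in MSR1 KO without overlap (edgeR adjusted p = 0.091), and Lum had a log2 fold change of 0.46 (edgeR adjusted p = 0.79). That of 8 dendritic cell markers was 64.6 to 92.2 in MSR1 KO and 145 to 236 in MSR1 WT, led by Itgax, Fscn1 and Batf3, with Itgax lower by an adjusted p of 0.0045 (edgeR) and the lineage markers Flt3 and Zbtb46 below 2 CPM in both groups. Most of the difference in that sum was Itgax, at 19.6 CPM in MSR1 KO and 111 CPM in MSR1 WT, while Xcr1 and Ccr7 had log2 fold changes of 2.04 and 2.49 in the other direction (edgeR adjusted p = 0.060 and 0.18) at under 1 CPM. Xcr1, with 7, 8 and 8 counts in MSR1 WT, entered the test only through the MSR1 KO group, as Ccr7 did. The summed ranges were 636 to 1039 and 419 to 799 for 8 neutrophil markers (led by Ngp, S100a9 and Ltf), 111 to 160 and 93.6 to 151 for 8 T and NK cell markers (led by Cd4, Klrb1c and Ncr1) and 19.1 to 23.0 and 15.4 to 20.3 for 6 B cell markers (led by Cd79b, Pax5 and Cd79a), in MSR1 KO and MSR1 WT, respectively. They were 31.8 to 33.9 and 14.9 to 25.7 for 6 mast cell and basophil markers (led by Kit, Mcpt8 and Cpa3) and 6.41 to 7.74 and 4.81 to 9.05 for 5 eosinophil markers (led by Prg2, Siglecf and Ear2). Klrb1c and Kit were higher in MSR1 KO (edgeR adjusted p = 0.028 and 0.039). No marker of these lists was at 0 in all 6 libraries, although Cd3e stayed at or below 0.093 CPM in both group means. The part of these cells in the ligand levels was not tested.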

How the data were processed

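RNA was extracted from co-cultured BMDMs and sequenced after an mRNA-seq library kit. The authors deposited raw counts per gene and library, with a signal column (counts divided by a size factor) and their own fold changes and p-values, which were not used here. The submitters' processing notes name fastp 0.17.1, HISAT2 2.1.0, DESeq2 1.18.1 and R 3.4.3, whereas the paper names TopHat. How reads were counted, with which strand setting and on which build, is not given in the sources used here. Among low values, 4947 equal 4 and 2201 equal 3, so 1 count may not be 1 read.

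After filterByExpr (10 counts, 0.244 CPM) and TMM scaling, 16402 genes were compared with edgeR 4.0.16 (R 4.3.3; glmQLFit, then glmQLFTest), with Benjamini-Hochberg adjustment; SE was |log2 fold change| divided by √F. Limits from counts cover counting error only. Alternatives were DESeq2 1.42.0, other scalings and filters, a replicate block and each library left out. Methods were tested on simulated data. Members, lists and tests were chosen with earlier results of these data known. Named genes were all members, Msr1, the tested ligands and receptors, called regulators and the 3 most abundant markers per list; called markers, other lineage markers, cytokines, regulators that were not called and genes near 0 were added after their values had been seen. Some genes of the receptor and transcription factor lists are not reported here. Exon lengths came from GENCODE M21. Libraries of a genotype differed beyond sampling noise (chi-square per degree of freedom 24.0 to 47.4).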

Additional observations from a re-analysis of the deposited data

How the results depend on the processing

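The members' directions held under all scalings, filters and the other test, and with a library left out except for the 2 most abundant genes, neither of which was called: the log2 fold change of Ccl6 ranged from -0.10 to 0.11, changing sign without MSR1 KO replicate 2 or MSR1 WT replicate 1 (0.04), and that of Ccl9 ranged from -0.029 (without MSR1 KO replicate 3) to 0.21. The number of members higher at an adjusted p under 0.05 was 4 with DESeq2, 0 with the replicate block and 0 to 3 with a library left out, and the number higher by the DEG definition was 3 to 5 with a library left out. For CC receptors the number higher was 1 with DESeq2 and 0 to 1 with a library left out. For cytokines it was 1 with DESeq2 and 0 to 1 with a library left out, and for transcription factors and inhibitors 6 with DESeq2, 0 with the replicate block and 0 to 4 with a library left out. Without the 100 most abundant genes, the members' share of counts was 0.201% in MSR1 KO and 0.200% in MSR1 WT. Over all tested genes, higher and lower calls numbered 720 and 848 with DESeq2, 237 and 288 with no filter, 59 and 78 with the replicate block, and from 18 and 53 (without MSR1 WT replicate 1) to 407 and 372 (without MSR1 WT replicate 3) with a library left out; scaling by library size alone gave 314 and 516, against 369 and 436. The replicate numbers did not pair the libraries (correlations of deviations -0.026, 0.019 and -0.005), and Ccl4 had an edgeR adjusted p of 0.0555 with the replicate block. The cause of these shifts was not tested. Ccl22 could not be fitted with 10 counts required in every library. Ccl22 had at most 34 counts in any library, which limits its precision.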
